A study of Mus musculus with 12 samples.

Results

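The 10 genes described here carry the hepatic insulin signal and the making of glucose in the liver: Insr, Irs1, Irs2, Akt2, Foxo1, Gcgr, Ppargc1a, Pcx, Pck1 and Fbp1. They were taken by symbol from a liver RNA sequencing count table of 50499 genes. All 10 were present, and all 10 were among the 11934 genes with enough counts to be tested. The libraries come from livers of male C57Bl/6NCrl mice that were 6 weeks old when feeding began. There were 4 groups of 3 libraries. The Western siAATF and Western null groups had Western diet and sugar water. The chow siAATF and chow null groups had chow and normal water. After 12 weeks every animal received AAV8 particles by tail vein, with the hepatocyte-directed TBG promoter, and livers were taken after a further 12 weeks. The siAATF particles were made to silence Aatf, which encodes a transcriptional regulator, and the null particles carried no silencing sequence. All 4 groups, controls included, had therefore received virus. Genotype is labelled wild type throughout. The labels do not say that each replicate number is a separate mouse, nor at which hour or in which feeding state livers were taken. The p-values therefore reflect the spread among the libraries, which may be technical.

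After a meal, insulin binds its receptor on the hepatocyte, the receptor phosphorylates the docking proteins IRS1 and IRS2, and these switch on PI3 kinase and the kinase AKT2. AKT2 keeps the transcription factor FOXO1 out of the nucleus, which lowers transcription of genes for making glucose. In fasting, glucagon acts through its receptor and cAMP in the opposite direction. Glucose is made from pyruvate and lactate through a chain of enzymes that begins with pyruvate carboxylase (Pcx) and passes through phosphoenolpyruvate carboxykinase (Pck1) and fructose bisphosphatase (Fbp1) to glucose-6-phosphatase (G6pc).

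Total counts per library ran from 1646853 to 13469819, and the 18S ribosomal RNA gene took between 0.871% and 50.8% of them. Levels are given as CPM, counts scaled to a common library size by the TMM method. A floor of 3 counts stood at 0.185 to 1.69 CPM, below the level of each member in each library. The lowest member count in a library was 18, for Ppargc1a, and the highest was 44396, for Pck1. Aatf itself showed no fall in libraries labelled siAATF. It averaged 27.5 ± 0.599 CPM in Western siAATF and 26.3 ± 4.60 CPM in Western null livers, and 34.8 ± 8.86 CPM in chow siAATF and 31.6 ± 5.13 CPM in chow null livers (SD, n = 3 each). The vector groups are named below by their labels, and no direction given for the vector rests on a measured fall of Aatf. Hepatocyte markers were present in all libraries, and Ins1, Ins2 and Gcg, which mark pancreatic islets, were listed at 0.

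On the Western diet, 2 members fell and 1 rose in livers with the null vector. Irs1 fell to 0.369 times its chow level, Pck1 fell to 0.514 times, and Pcx rose 2.12-fold. Averaged over both vectors, the same 3 genes passed with the same directions. Insr, Irs2, Akt2, Foxo1, Gcgr, Ppargc1a and Fbp1 did not pass with edgeR in the fit of all 12 libraries. This held in all 7 contrasts of diet, vector and their interaction. The count of 3 of 10 members for Western null against chow null stands against 13.2% of all tested genes called in that comparison (quasi-likelihood test of edgeR, threshold of 0.05 on p adjusted after Benjamini and Hochberg). By direction, 2 of 10 fell, against 6.77%, and 1 of 10 rose, against 6.44%. For the mean over vectors, 3 of 10 stands against 18.2%, 2 lower against 8.59% and 1 higher against 9.61%. The lowest and highest libraries of Western null and chow null did not overlap for 6 of the 10 members, against 34.7% of all tested genes. The median log2 fold change of the 10 members was -0.12 in Western null against chow null, beside -0.03 over all tested genes.

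**Figure D1:**
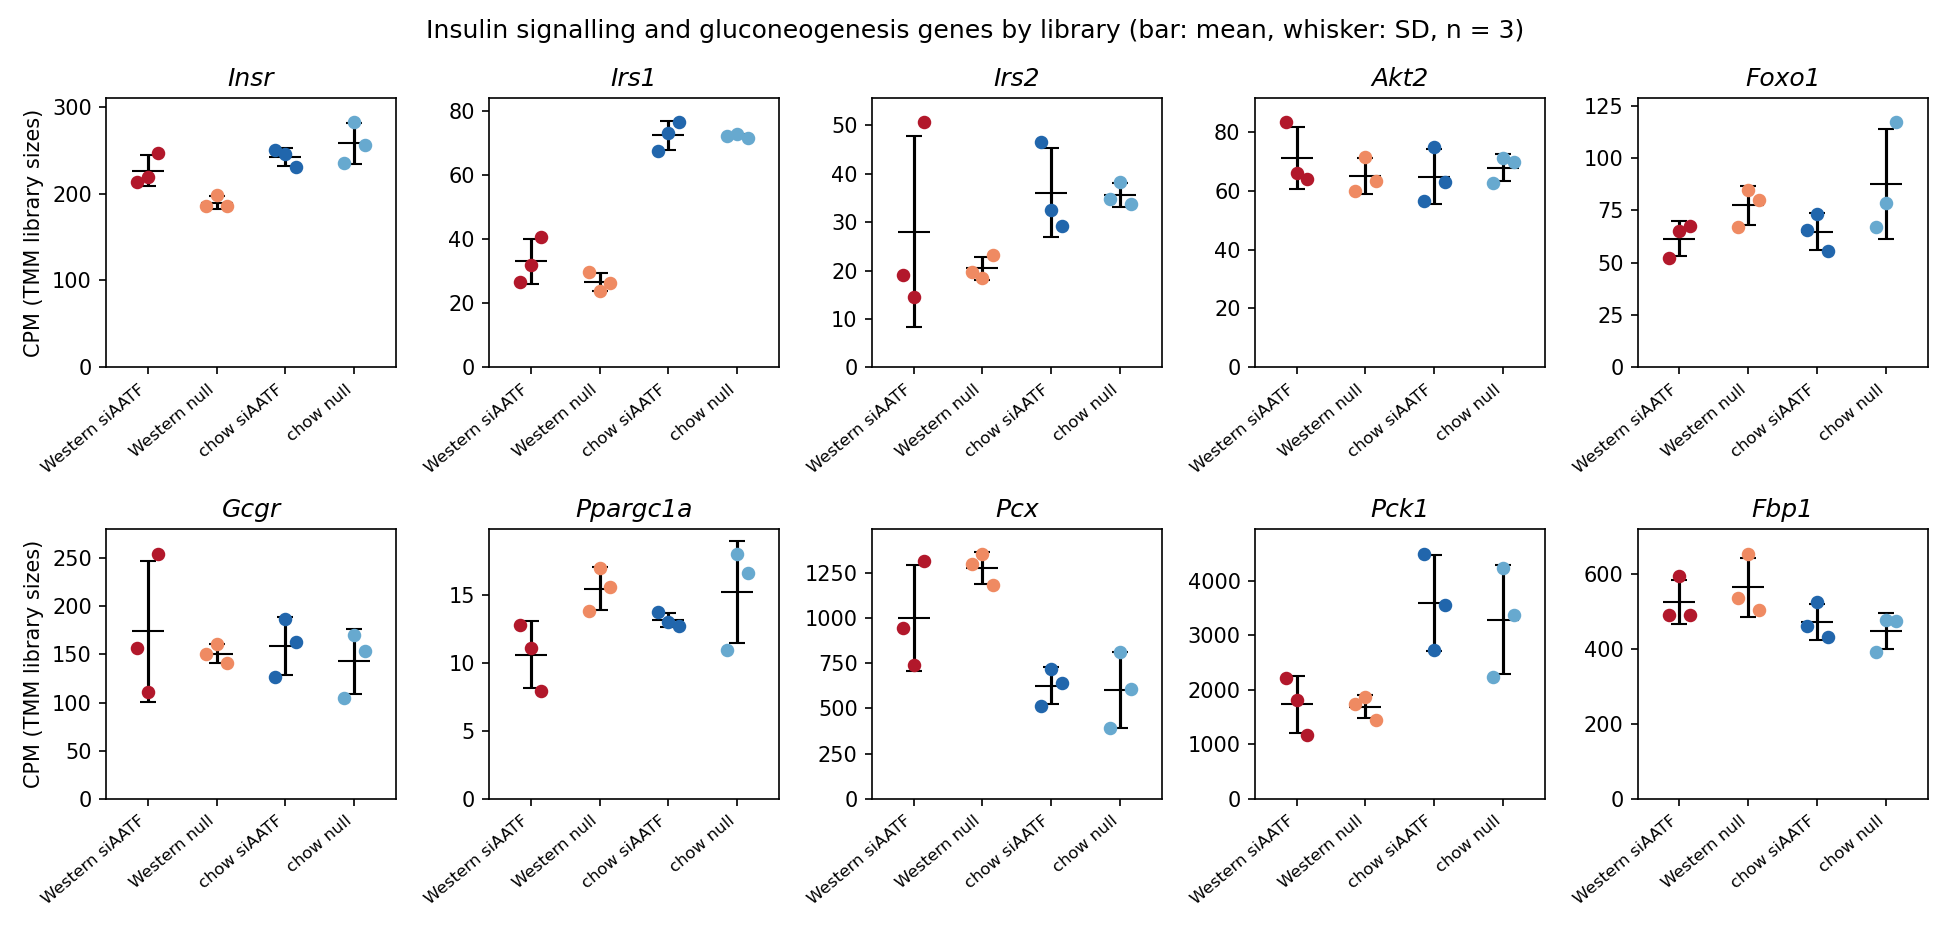
CPM (vertical axes, from 0) of the 10 members in each of the 12 libraries, grouped by diet and vector along the horizontal axes, with a point per library and a bar for the group mean ± SD. Irs1 lies between 23.9 and 40.5 CPM in the 6 Western libraries and between 67.5 and 76.3 CPM in the 6 chow libraries, while Akt2 and Gcgr overlap between all groups.

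Insr encodes the insulin receptor, a tyrosine kinase of the cell surface (GRCm39, chromosome 8, 3200922 to 3329649, minus strand). Its replicates stood at 213, 219 and 246 CPM in Western siAATF, at 185, 198 and 185 CPM in Western null, at 250, 245 and 231 CPM in chow siAATF, and at 236, 282 and 255 CPM in chow null livers. Western null livers were the lowest group and overlapped no other. The log2 fold change of Western null against chow null was -0.44 ± 0.20 (SE, adjusted p = 0.154 by edgeR), so the difference did not pass.

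Irs1 encodes the docking protein that passes the signal from the insulin receptor to PI3 kinase (chromosome 1, 82210826 to 82269160, minus strand). It stood at 26.5, 32.0 and 40.5 CPM in Western siAATF, at 29.6, 23.9 and 26.4 CPM in Western null, at 67.5, 73.0 and 76.3 CPM in chow siAATF, and at 72.0, 72.8 and 71.5 CPM in chow null livers. Every Western library lay below every chow library. The log2 fold change was -1.44 ± 0.22 in Western null against chow null (edgeR, adjusted p = 0.000597), and it passed in all 16 alternatives tried, from -1.50 to -1.29. In Western siAATF against chow siAATF it was -1.14 ± 0.21 (adjusted p = 0.0145), and Irs1 was the 1 member called there, against 1.48% of all tested genes. That call did not survive the omission of Western siAATF replicate 1 (-1.01, adjusted p = 0.0772), chow siAATF replicate 2 (-1.15, 0.0730) or chow siAATF replicate 3 (-1.14, 0.0525). It was also lost in a fit of the 2 groups alone (-1.11, 0.123) and without the libraries over 25% 18S (-1.16, 0.0577). Averaged over vectors, Irs1 fell by 1.29 ± 0.15 on the log2 scale (edgeR, adjusted p = 6.498e-05), and ranked 39th of the 11934 genes by p.

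Irs2 encodes the sister docking protein, whose gene is known to be switched on in fasting (chromosome 8, 11034681 to 11058929, minus strand). It stood at 19.0, 14.5 and 50.6 CPM in Western siAATF, at 19.7, 18.4 and 23.2 CPM in Western null, at 46.6, 32.5 and 29.3 CPM in chow siAATF, and at 34.7, 38.4 and 33.8 CPM in chow null livers. The 5 other Western libraries lay below all 6 chow libraries, and Western siAATF replicate 3 lay above them. On the log2 scale the change was -0.78 ± 0.36 in Western null against chow null (edgeR, adjusted p = 0.162) and -0.59 ± 0.25 over both vectors (adjusted p = 0.117). Without Western siAATF replicate 3 the value over both vectors was -0.96 (adjusted p = 0.00139), and that of Western siAATF against chow siAATF was -1.14 (adjusted p = 0.0198) in place of -0.40 (adjusted p = 0.657). Over both vectors Irs2 also passed with limma-voom (adjusted p = 0.0449) and with no low count filter, and it passed in 3 of 21 alternatives in all. In a fit of Western null and chow null alone, Irs2 passed with -0.78 (adjusted p = 0.0344).

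Akt2 encodes the main AKT kinase of insulin action in the liver (chromosome 7, 27290977 to 27340251, plus strand), and it varied least of the 10 members, with an SD of 0.152 on the log2 scale over the 12 libraries. It ranged from 63.8 to 83.1 CPM in Western siAATF, from 59.7 to 71.6 CPM in Western null, from 56.6 to 74.8 CPM in chow siAATF, and from 62.5 to 71.1 CPM in chow null livers. The 95% interval of its log2 fold change in Western null against chow null ran from -0.50 to 0.38. Foxo1 (chromosome 3, 52175758 to 52257530, plus strand) stood at 52.2, 65.1 and 67.3 CPM in Western siAATF, at 67.1, 84.8 and 80.1 CPM in Western null, at 65.6, 73.2 and 55.6 CPM in chow siAATF, and at 66.8, 78.5 and 117 CPM in chow null livers. Chow null replicate 3 was the highest. The log2 fold change of Foxo1 in Western null against chow null was -0.18 ± 0.24 (edgeR, adjusted p = 0.664).

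Gcgr encodes the glucagon receptor (chromosome 11, 120420011 to 120429815, plus strand). It stood at 157, 111 and 255 CPM in Western siAATF, at 151, 161 and 141 CPM in Western null, at 126, 187 and 163 CPM in chow siAATF, and at 105, 170 and 154 CPM in chow null livers. All groups overlapped, and Western siAATF replicate 3 was again the highest. The interval of its log2 fold change in Western null against chow null ran from -0.52 to 0.69. Ppargc1a encodes the coactivator PGC-1alpha, which works with FOXO1 and HNF4A at genes for making glucose (chromosome 5, 51611591 to 52273337, minus strand). It stood at 12.8, 11.1 and 7.92 CPM in Western siAATF, at 13.8, 17.0 and 15.6 CPM in Western null, at 13.8, 13.1 and 12.7 CPM in chow siAATF, and at 10.97, 18.1 and 16.6 CPM in chow null livers. The 3 Western siAATF libraries lay below the 3 Western null libraries, without overlap. Western null also lay just above chow siAATF without overlap, and the remaining pairs of groups overlapped.

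Pcx encodes pyruvate carboxylase, the mitochondrial enzyme that turns pyruvate into oxaloacetate (chromosome 19, 4560500 to 4671780, plus strand). It stood at 945, 738 and 1317 CPM in Western siAATF, at 1299, 1357 and 1184 CPM in Western null, at 514, 717 and 642 CPM in chow siAATF, and at 392, 814 and 608 CPM in chow null livers. All Western null libraries lay above all chow libraries, and Western siAATF replicate 2 lay below the highest chow null library. Its log2 fold change was 1.08 ± 0.29 in Western null against chow null (edgeR, adjusted p = 0.0220), 0.68 ± 0.29 in Western siAATF against chow siAATF (adjusted p = 0.272) and 0.88 ± 0.21 over both vectors (adjusted p = 0.00800). The first call was lost when 1 library was left out: Western null replicate 1, 2 or 3 (adjusted p = 0.0698, 0.0815 and 0.0548) or chow null replicate 1 or 3 (0.0934 and 0.0878). The value itself then lay between 0.85 and 1.12. That call was also lost without the libraries over 25% 18S, which leaves 1 chow null library. The value over both vectors passed in all 21 alternatives.

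Pck1 encodes the cytosolic phosphoenolpyruvate carboxykinase, which turns oxaloacetate into phosphoenolpyruvate (chromosome 2, 172994866 to 173001067, plus strand). It stood at 2208, 1816 and 1167 CPM in Western siAATF, at 1744, 1874 and 1451 CPM in Western null, at 4498, 2733 and 3548 CPM in chow siAATF, and at 2238, 4239 and 3376 CPM in chow null livers. Every Western library lay below every chow library, with chow null replicate 1 only just above the highest Western one. Only Irs1 and Pck1 among the 10 members separated all 6 Western from all 6 chow libraries, and 5.87% of all tested genes did so. The log2 fold change was -0.96 ± 0.31 in Western null against chow null (edgeR, adjusted p = 0.0478), -1.05 ± 0.31 in Western siAATF against chow siAATF (adjusted p = 0.0993) and -1.01 ± 0.22 over both vectors (adjusted p = 0.00485). The second value passed in 2 of 16 alternatives, with DESeq2 (adjusted p = 0.0193) and with no low count filter. The first value sat at the threshold and passed in 6 of 16 alternatives, with adjusted p from 0.0138 to 0.150. Leaving out Western null replicate 1, 2 or 3 (0.130, 0.111 and 0.150) or chow null replicate 2 or 3 (0.128 and 0.125) ended it, as did upper quartile scaling (0.0745). The call was also lost with the 18S gene removed, with the stricter low count filter and with the replicate block. It was lost too without the libraries over 25% 18S, which leaves 1 chow null library. The value over both vectors passed in all 21 alternatives.

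Fbp1 encodes the liver fructose bisphosphatase (chromosome 13, 63012567 to 63036112, minus strand). It ranged from 491 to 594 CPM in Western siAATF, from 505 to 654 CPM in Western null, from 431 to 525 CPM in chow siAATF, and from 393 to 476 CPM in chow null livers. Western null lay above chow null without overlap, but the log2 fold change of 0.33 ± 0.22 did not pass (edgeR, adjusted p = 0.336). Another gene model lies inside 34.0% of the Fbp1 span and is listed at 0, so part of the Fbp1 reads may be missing. Other gene models also cover 4.45% of Irs2, 3.73% of Pcx and 1.30% of Ppargc1a, and none of the other members. Those in Pcx and Ppargc1a lie inside the gene and are listed at 0. The gene model at Irs2 reaches beyond the gene and had 38 counts over all libraries.

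The opposite movement of Pcx and Pck1 can be read within a library, where no scaling enters. There were 0.428, 0.406 and 1.13 Pcx counts per Pck1 count in Western siAATF, 0.745, 0.724 and 0.816 in Western null, 0.114, 0.262 and 0.181 in chow siAATF, and 0.175, 0.192 and 0.180 in chow null libraries. The lowest Western ratio was above the highest chow ratio. The ratio of Irs1 to Insr counts was 0.120 to 0.164 in Western and 0.259 to 0.330 in chow libraries. The ratio of Irs1 to Irs2 counts overlapped between the diets, at 0.800 to 2.20 in Western and 1.45 to 2.61 in chow libraries. These ratios were chosen after the values were seen and are given without a test.

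**Figure D2:**
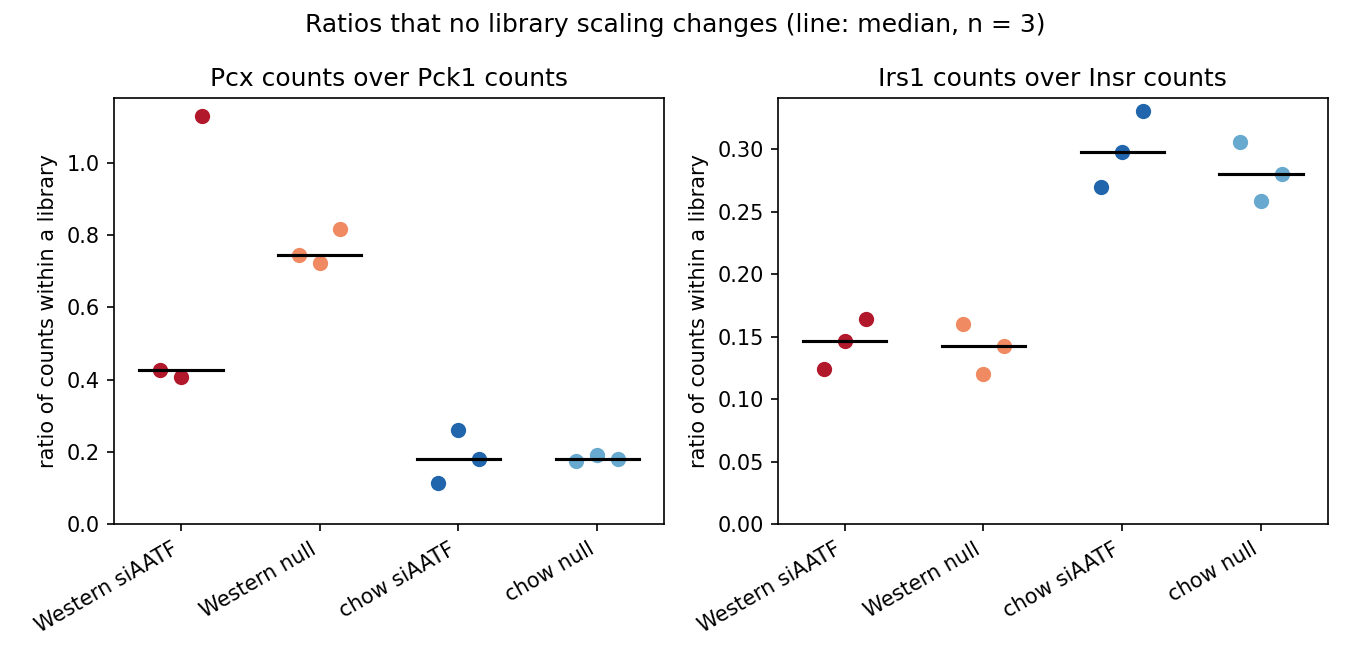
Counts of Pcx over counts of Pck1 (left) and of Irs1 over Insr (right), each vertical axis a ratio from 0, for the 3 libraries of each group, with a line at the group median. The 6 Western libraries lie at 0.406 or above on the left, against at most 0.262 in chow, and at 0.164 or below on the right, against at least 0.259 in chow.

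The called genes among the other genes of glucose production did not move in 1 direction. Of 28 tested in the list, 4 rose and 3 fell in Western null against chow null, against 6.44% and 6.77% of all tested genes. The counts were the same for the mean over vectors, against 9.61% and 8.59%. Called or not, 21 of the 28 lay above 0 in Western null against chow null. Their median log2 fold change was 0.43, beside -0.03 over all tested genes. In Western siAATF against chow siAATF 14 lay above 0 and 14 below. In Western siAATF against Western null 7 lay above 0 and 21 below, with a median of -0.19, beside 0.06 over all tested genes. G6pc, whose product releases free glucose as the last step of the route, fell in both diet comparisons (chromosome 11, 101258542 to 101268729, plus strand). It stood at 93.8, 75.6 and 245 CPM in Western siAATF, at 132, 93.7 and 76.6 CPM in Western null, at 463, 506 and 465 CPM in chow siAATF, and at 268, 415 and 350 CPM in chow null livers. Every Western library lay below every chow library. Its log2 fold change was -1.78 ± 0.37 in Western null against chow null (edgeR, adjusted p = 0.00509) and -1.80 ± 0.37 in Western siAATF against chow siAATF (adjusted p = 0.0240). The second passed in 10 of 16 alternatives, and the first in all 16.

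Slc37a4, the carrier that brings glucose-6-phosphate to the G6pc enzyme, rose in Western null against chow null. It averaged 113 ± 14.1 CPM in Western null and 51.5 ± 19.4 CPM in chow null livers (log2 fold change 1.14 ± 0.33, edgeR adjusted p = 0.0330). In Western siAATF against chow siAATF it did not pass, at 67.8 ± 18.9 and 54.8 ± 20.9 CPM (adjusted p = 0.725). Pck2, the mitochondrial counterpart of Pck1, averaged 6.47 ± 0.697 CPM in Western null and 1.44 ± 0.294 CPM in chow null livers (2.09 ± 0.43, adjusted p = 0.00508). Its chow null mean lay below the floor of 3 counts in chow null replicate 2, 1.69 CPM. Gpt2, the mitochondrial alanine aminotransferase, averaged 833 ± 82.7 CPM in Western null and 305 ± 103 CPM in chow null livers (1.45 ± 0.27, adjusted p = 0.00259). Got1, the cytosolic aspartate aminotransferase, averaged 46.6 ± 6.28 CPM in Western null and 141 ± 64.0 CPM in chow null livers (-1.60 ± 0.36, adjusted p = 0.00817). Gpi1 (0.87 ± 0.25, higher) and Tat (-1.16 ± 0.35, lower), the 2 further genes called, are added to those the naming rule gives.

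**Figure D3:**
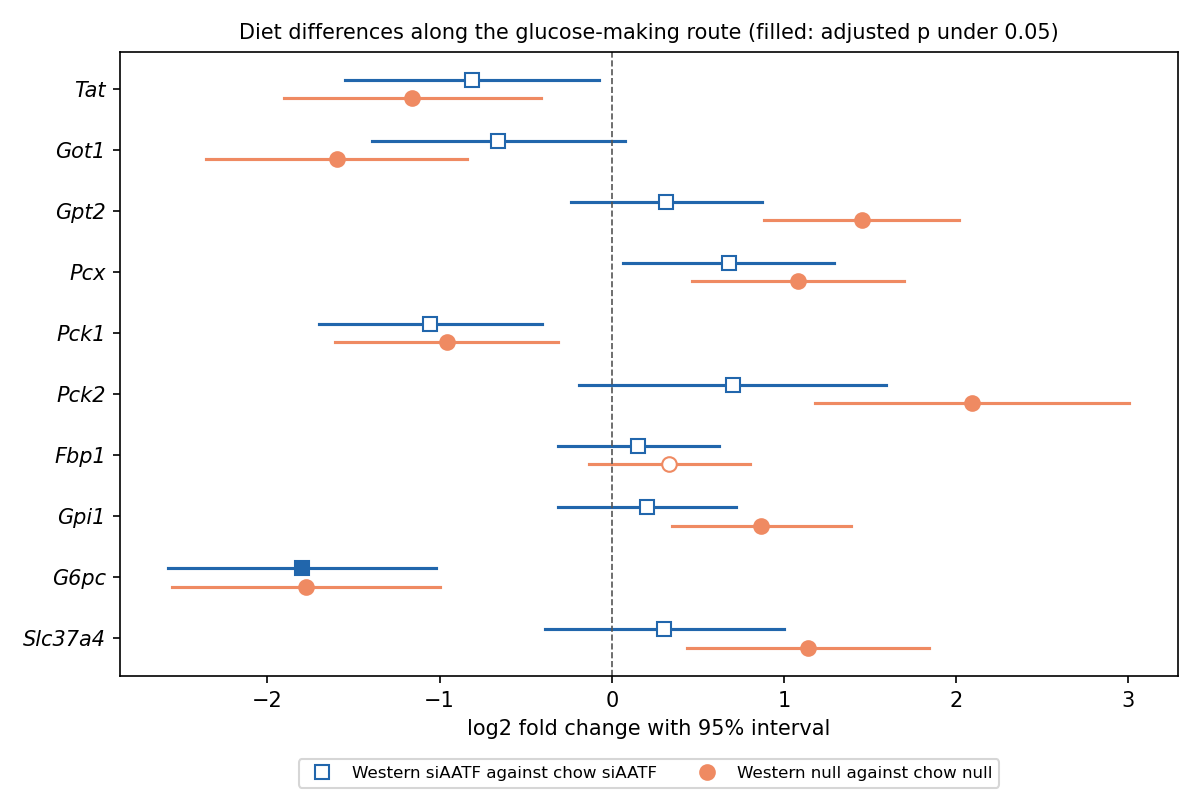
Log2 fold changes with 95% intervals (horizontal axis) for Western siAATF against chow siAATF and Western null against chow null. Genes run roughly from amino acids and pyruvate to glucose, with Slc37a4, which acts before G6pc, placed last. Shown are Pcx, Pck1, Fbp1 and the other listed genes called in Western null against chow null. The listed genes not called are left out. Filled points passed the adjusted p threshold of 0.05. Pck1, Got1, Tat and G6pc lie left of 0 and Pcx, Pck2, Gpt2 and Slc37a4 right of it in Western null against chow null.

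Irs1, Pck1 and G6pc fell together with the diet, and the promoter windows of these genes are shown for that reason. They come from RefSeq, build GRCm38.p6, and take in 250 bases before the start and 50 after it, 5′ to 3′ on the strand of the gene. The Irs1 window is chr1:82291390-82291689 (minus strand), that of Pck1 chr2:173152823-173153122 (plus strand) and that of G6pc chr11:101367466-101367765 (plus strand). Capitals mark matches on either strand to the motifs named in the next paragraph.
Irs1: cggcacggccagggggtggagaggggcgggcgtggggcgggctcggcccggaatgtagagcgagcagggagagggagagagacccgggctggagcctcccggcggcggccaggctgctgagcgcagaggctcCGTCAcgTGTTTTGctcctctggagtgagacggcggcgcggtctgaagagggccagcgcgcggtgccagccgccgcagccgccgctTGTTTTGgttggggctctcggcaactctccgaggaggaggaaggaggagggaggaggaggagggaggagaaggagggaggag
Pck1: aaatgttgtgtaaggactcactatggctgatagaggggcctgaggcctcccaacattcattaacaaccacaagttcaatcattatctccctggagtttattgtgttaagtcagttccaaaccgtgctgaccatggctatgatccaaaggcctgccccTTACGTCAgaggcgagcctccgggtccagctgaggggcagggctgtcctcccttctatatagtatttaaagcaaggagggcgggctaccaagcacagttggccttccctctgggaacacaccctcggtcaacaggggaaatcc
G6pc: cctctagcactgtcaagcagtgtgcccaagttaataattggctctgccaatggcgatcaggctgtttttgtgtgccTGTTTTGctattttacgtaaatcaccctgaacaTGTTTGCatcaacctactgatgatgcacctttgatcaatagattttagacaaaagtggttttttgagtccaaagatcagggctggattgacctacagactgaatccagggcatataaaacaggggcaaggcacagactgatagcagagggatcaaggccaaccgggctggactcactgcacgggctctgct

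Each motif was sought on both strands. The cAMP response element TGACGTCA was in none of the 3 windows, and is in 1.79% of 32851 such windows. Its variant TTACGTCA, known as the cAMP response element of this promoter in rat, was in the Pck1 window at bases 158 to 165, and is in 0.499% of windows. It was added to the search after the window had been read. The shorter TGACG, which the variant holds on the other strand, is in 20.8% of windows and was also in the Irs1 window at bases 133 to 137, read as CGTCA. The forkhead motif TGTTTNC, in 20.5% of windows, was in the G6pc window at bases 110 to 116. GTAAACA, a forkhead motif that overlaps TGTTTNC on the other strand, is in 3.65% of windows and was in none of the 3. CAAAACA, the core of the insulin response sequence, is in 6.28% of windows. It was in the Irs1 window at bases 140 to 146 and 219 to 225 and in the G6pc window at bases 77 to 83, each read as TGTTTTG. Of the 10 members, 9 had a window. None of these motifs was in the windows of Pcx, Foxo1, Gcgr and Fbp1. Members not called with edgeR in the fit of all 12 libraries also held matches. TGACG was in windows of Akt2 and Ppargc1a, TGTTTNC in windows of Akt2, and CAAAACA in the Irs2 window.

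Beyond the members, the wider insulin pathway had 42 tested genes, of which 1 rose and 5 fell in Western null against chow null. The count of 6 of 42 is close to the 13.2% of all tested genes called there. By direction, 5 of 42 fell, against 6.77%, and 1 of 42 rose, against 6.44%. The median log2 fold change of the list was -0.24, beside -0.03 over all tested genes. Phlpp1, a phosphatase that removes an activating phosphate from AKT, averaged 42.0 ± 7.89 CPM in Western null and 95.5 ± 16.0 CPM in chow null livers (-1.18 ± 0.22, edgeR adjusted p = 0.00276), and it passed in all 16 alternatives. Trib3, a pseudokinase that binds AKT, averaged 16.8 ± 1.04 CPM in Western null and 3.99 ± 1.62 CPM in chow null livers (2.20 ± 0.60, adjusted p = 0.0249). Rictor, a subunit of the mTORC2 complex that phosphorylates AKT, fell by 0.99 ± 0.28 on the log2 scale (adjusted p = 0.0282), and Tsc1, an inhibitor of mTORC1 signalling, fell by 0.75 ± 0.23 (adjusted p = 0.0378). Trib3, Rictor and Tsc1 passed in 10, 10 and 5 of 16 alternatives. Over both vectors 2 genes of the list rose and 6 fell, against 18.2% of all tested genes called. Among them Grb14, which binds and inhibits the insulin receptor, fell by 0.71 ± 0.17 (adjusted p = 0.00957) and Ptprf, a receptor phosphatase, by 0.64 ± 0.16 (adjusted p = 0.0131).

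The glucagon and cAMP list had 23 tested genes, of which 3 fell and 20 did not pass in Western null against chow null, with a median log2 fold change of -0.53, beside -0.03 over all tested genes. The count of 3 of 23, all lower, stands against 6.77% of all tested genes that fell there and 13.2% called in either direction. Adcy9, an adenylyl cyclase that makes cAMP, averaged 51.5 ± 2.43 CPM in Western null and 97.5 ± 19.6 CPM in chow null livers (-0.92 ± 0.21, edgeR adjusted p = 0.00878). Sik3, a kinase that holds CREB coactivators in the cytosol, fell by 0.93 ± 0.26 (adjusted p = 0.0294), and Crebbp, a coactivator of CREB, fell by 0.75 ± 0.21 (adjusted p = 0.0292). Over both vectors 6 fell, against 8.59% of all tested genes, Crem, a repressor and activator at cAMP response elements, among them (-0.88 ± 0.24, adjusted p = 0.0193). The list thus holds genes that act in opposite directions on the same signal.

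Of 19 tested transcriptional regulators of glucose production, 2 fell in Western null against chow null, where 6.77% of all tested genes fell. Prox1, a corepressor of HNF4A, averaged 94.5 ± 16.6 CPM in Western null and 217 ± 41.7 CPM in chow null livers (-1.19 ± 0.25, edgeR adjusted p = 0.00574). Hnf4a, a nuclear receptor that drives hepatocyte genes, averaged 384 ± 41.4 CPM in Western null and 655 ± 126 CPM in chow null livers (-0.77 ± 0.24, adjusted p = 0.0451), with other gene models overlapping 52.8% of its span. That call held in 4 of 16 alternatives. Of 18 tested FOXO1 targets, 3 fell: Pck1, G6pc and Bcl6, a transcriptional repressor (-1.29 ± 0.35, adjusted p = 0.0220). Irs2, Insr and Ppargc1a are also on that list and did not pass. Nor did Igfbp1, a secreted binding protein of insulin-like growth factors lowered by insulin (-0.84 ± 0.68, adjusted p = 0.452), or Pdk4, a kinase that shuts pyruvate dehydrogenase in fasting (0.58 ± 1.06, adjusted p = 0.759). Txnip and, in the insulin list, Ceacam1 lie wholly inside other gene models, are listed at 0 in all libraries and were not analysed here.

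The hour and feeding state at collection are known to set Pck1, G6pc and Irs2 in the liver. Of 15 tested clock genes, 6 rose and 3 fell in Western null against chow null, against 6.44% and 6.77% of all tested genes. Arntl, which encodes the clock activator BMAL1, averaged 3.76 ± 0.898 CPM in Western null and 31.5 ± 0.893 CPM in chow null livers (-3.11 ± 0.44, edgeR adjusted p = 0.000348). Npas2, its partner, fell by 3.13 ± 0.51 (adjusted p = 0.00108), and Per3, a clock repressor, rose by 2.58 ± 0.40 (adjusted p = 0.000633). Usp2, a clock-driven protease, rose by 4.88 ± 0.47 (adjusted p = 1.232e-05). Of 10 tested genes that respond to fasting and feeding, 1 rose, against 6.44% of all tested genes. It was Pklr, the liver pyruvate kinase (1.14 ± 0.36, adjusted p = 0.0476). In Western siAATF against chow siAATF, 3 clock genes rose and 1 fell, where 1.48% of all tested genes were called. The part of the clock or of feeding in the results for the members was not tested.

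Markers of other liver cells also moved with the diet. In Western null against chow null, 6.44% of all tested genes rose and 6.77% fell. Of 14 tested macrophage and leukocyte markers 9 rose in Western null against chow null, and their summed level ran from 976 to 1567 CPM in Western null and from 330 to 486 CPM in chow null libraries. Of 9 tested stellate cell and fibroblast markers 5 rose, with sums of 1187 to 1660 CPM in Western null and 229 to 352 CPM in chow null libraries. Lrat, a defining stellate cell marker, lies inside another gene model and is listed at 0. Of 7 endothelial and 5 cholangiocyte markers tested, 3 rose in each list. Of 12 tested hepatocyte markers 2 fell, with a median log2 fold change of -0.55, and their sums ran from 62719 to 70909 CPM in Western null and from 85111 to 112391 CPM in chow null libraries. In bulk liver, fewer cells of a type and less RNA per cell cannot be told apart. The part of cell makeup in the results for Irs1, Pck1 and Pcx was not tested.

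The second question was whether the siAATF vector changed these genes. On the Western diet 0 of 10 members passed, against 0.871% of all tested genes, and on chow 0 of 10 passed, where edgeR called 0 of all 11934 genes. For the members, 0 had an unadjusted p under 0.05 in either comparison, and DESeq2 and limma-voom also called 0. Over all genes on chow, 285 had an unadjusted p under 0.05 and DESeq2 called 1. Western siAATF and Western null libraries did not overlap for 2 members, Insr (higher) and Ppargc1a (lower), against 15.6% of all tested genes. Chow siAATF and chow null libraries overlapped for all 10, where 8.56% of all tested genes did not.

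The member with the smallest p on the Western diet was Ppargc1a, with 10.6 ± 2.49 CPM in Western siAATF and 15.5 ± 1.61 CPM in Western null livers (SD, n = 3 each). Its log2 fold change was -0.53 ± 0.28 (edgeR, adjusted p = 0.545), with an interval from -1.12 to 0.06. The intervals for the genes that moved with diet ran from -0.16 to 0.77 for Irs1, from -0.61 to 0.68 for Pck1 and from -0.97 to 0.25 for Pcx. For Irs1 and Pck1, a vector change of the size of the diet difference and opposite to it lies outside the interval. For Pcx, a change as large as its diet difference under the null vector (1.08) and opposite to it also lies outside, though closely. A change as large as its smaller diet difference over both vectors (0.88) and opposite to it lies inside. Averaged over diets, Foxo1 had the smallest p of the members, at 61.6 ± 8.19 CPM in Western siAATF and 77.4 ± 9.16 CPM in Western null livers, and 64.8 ± 8.83 CPM in chow siAATF and 87.4 ± 26.3 CPM in chow null livers. Its mean log2 fold change was -0.38 ± 0.17, with an unadjusted p of 0.0374 and an adjusted p of 0.933 by edgeR, and 0 of 10 members passed, against 0.0335% of all tested genes. DESeq2 and limma-voom called 0 members as well.

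**Figure D4:**
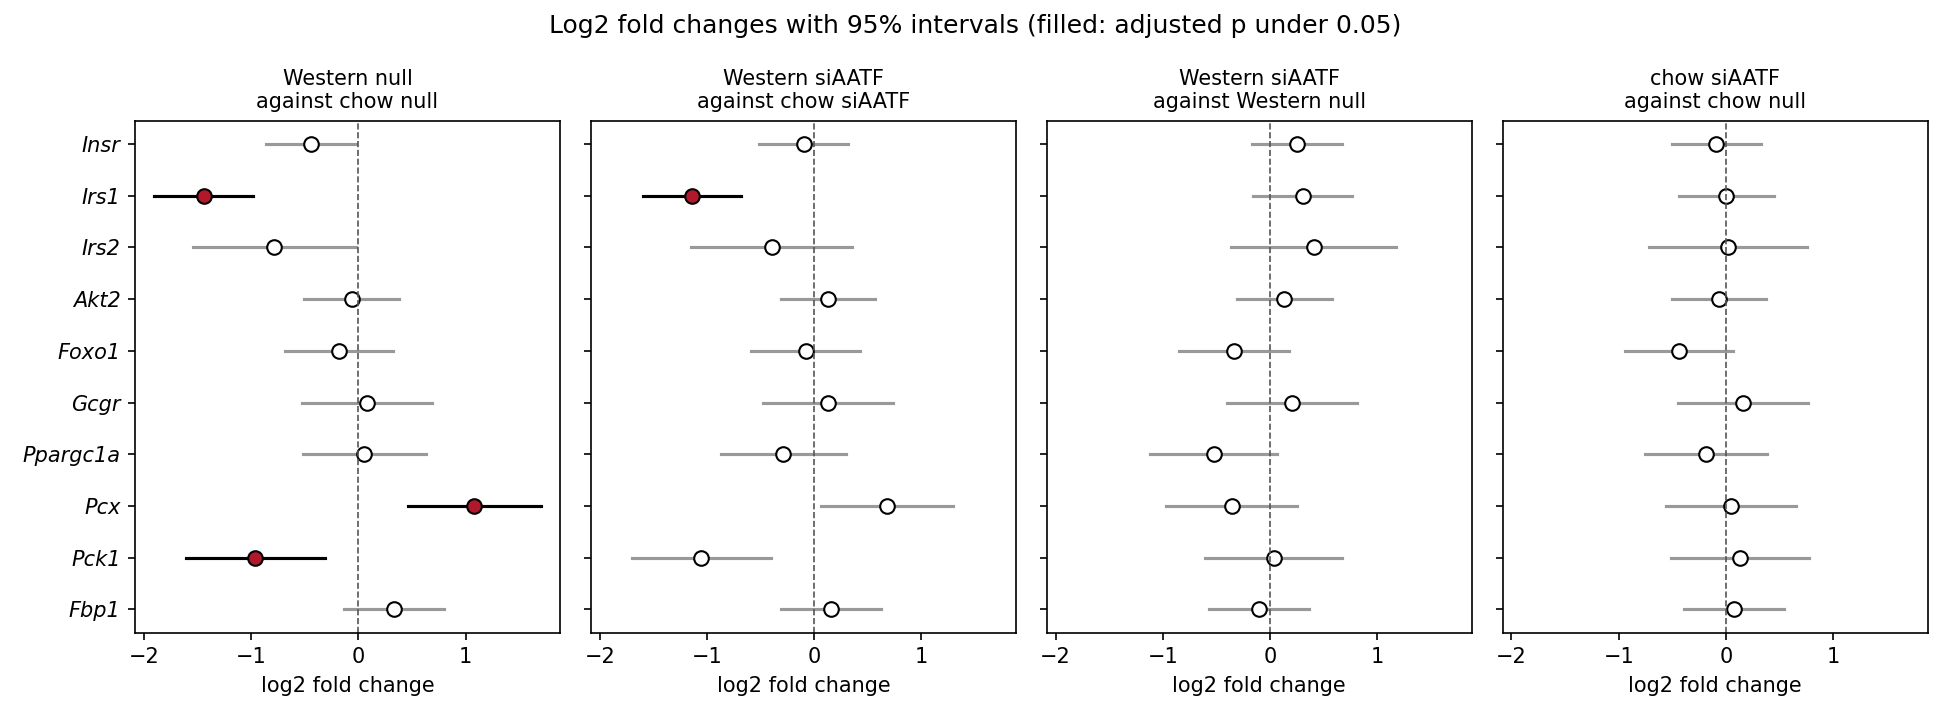
Log2 fold changes (horizontal axes) with 95% intervals of the 10 members in 4 comparisons, a panel each. Filled points passed the adjusted p threshold of 0.05. Irs1, Pcx and Pck1 are filled in Western null against chow null and Irs1 in Western siAATF against chow siAATF, and no point is filled in the 2 vector panels.

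The effect of diet was not shown to differ between vectors for any member. In the interaction 0 of 10 members passed, against 0.193% of all tested genes, 0 had an unadjusted p under 0.05, and DESeq2 and limma-voom called 0. The smallest p was that of Insr, with a log2 difference of 0.34 ± 0.28 (edgeR, adjusted p = 0.742) and an interval from -0.25 to 0.94. For Irs1 the interval ran from -0.34 to 0.94, for Pck1 from -1.001 to 0.81 and for Pcx from -1.27 to 0.46. The Pcx interval takes in a difference as large as its diet effect under the null vector (1.08) and opposite to it. For Pck1 the interval takes in a difference of the size of that effect (-0.96) in the same direction, but not in the opposite direction. In the 7 pathway, feeding and clock lists around the members, edgeR called 0 genes in either vector comparison, with 0 to 4 genes of a list at an unadjusted p under 0.05. DESeq2 called Gpt2 and Lpin1, a phosphatidate phosphatase (adjusted p = 0.0383), on the Western diet, and limma-voom called Gpt2. Gpt2 was nearest on the Western diet, at 389 ± 61.6 CPM in Western siAATF and 833 ± 82.7 CPM in Western null livers (-1.10 ± 0.27, adjusted p = 0.0691). Without Western siAATF replicate 3 it passed (-1.24, adjusted p = 0.0126), as it did with DESeq2 (-1.11, adjusted p = 0.00361) and limma-voom (-1.11, adjusted p = 0.0474). Markers of other liver cells were read in the same comparison. Of 14 tested macrophage and leukocyte markers, 3 fell in Western siAATF against Western null, where 0.871% of all tested genes were called. They were Gpnmb, Trem2 and Cd74 (edgeR, adjusted p = 8.389e-06, 0.0102 and 0.0287), named here after their values were seen. Gpnmb averaged 0.669 ± 0.222 CPM in Western siAATF and 47.6 ± 4.49 CPM in Western null, and Cd74 averaged 94.8 ± 32.1 CPM in Western siAATF and 362 ± 59.6 CPM in Western null livers (SD, n = 3 each). The Gpnmb level in Western siAATF lay near the floor of 3 counts, 0.663, 0.681 and 1.32 CPM in those libraries. The summed level of that list overlapped, at 506 to 1015 CPM in Western siAATF and 976 to 1567 CPM in Western null libraries. The stellate cell and fibroblast list had sums of 354 to 846 CPM in Western siAATF and 1187 to 1660 CPM in Western null libraries and a median log2 fold change of -1.21. EdgeR called 0 of its 9 tested genes, with 5 at an unadjusted p under 0.05, DESeq2 called 3 and limma-voom called 0. All 5 tested cholangiocyte markers were lower (median -2.26), 3 of them at an unadjusted p under 0.05 by edgeR. That list summed to 7.49 to 10.6 CPM in Western siAATF and 14.7 to 33.1 CPM in Western null libraries. Of 7 tested endothelial markers 5 were lower (median -0.22), and of 12 hepatocyte markers 5 (median 0.02). EdgeR called 0 genes of these lists, and DESeq2 called Fgb, a hepatocyte marker. The part of these markers in the values of Gpt2 and Ppargc1a was not tested. Socs3, an inhibitor of insulin receptor signalling, stood at 30.1, 13.8 and 4.84 CPM in Western siAATF and at 5.03, 3.82 and 3.55 CPM in chow siAATF livers. It passed in Western siAATF against chow siAATF (2.03 ± 0.47, adjusted p = 0.0406), in 7 of 16 alternatives.

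Western siAATF replicate 3 stood apart from the 2 other libraries of its group for several of these genes. It was the highest of all libraries for Irs2 (50.6 CPM) and Gcgr (255 CPM) and the lowest for Ppargc1a (7.92 CPM) and Pck1 (1167 CPM). G6pc was at 245 CPM there, against 93.8 and 75.6 CPM in replicates 1 and 2. Pdk4 was at 133 CPM, against 39.8 and 2.50 CPM. Cfd, an adipocyte marker, was at 102 CPM in that library and at no more than 5.11 CPM in any other. The sum of all 5 listed adipocyte markers also reached no more than 102 CPM in Western siAATF. Adipoq, Lep, Retn and Plin1 thus added almost nothing to Cfd. The 18S share of that library, 0.871%, was the lowest. The part of adipose RNA, of RNA quality or of the state of the animal in these values was not tested.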

How the data were processed

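Per the labels' protocols, total RNA of liver was isolated on columns and turned into SMART-Seq libraries. The authors deposited whole-number counts of reads per gene. Per the submitters' processing notes, STAR 2.7.11, featureCounts 2.0.1, R 4.3.2, DESeq2 1.42.0 and build GRCm39 were used. The strand setting is not given in the sources used here. Each gene's stated length equals its whole span, so introns were counted, and reads on overlapping genes could be lost. The smallest chi-square per degree of freedom between replicates was 10.3, so none was counted as a repeat of another.

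CPM was calculated from the deposited counts after TMM scaling, and filterByExpr chose the genes to test from the group sizes. The test was the quasi-likelihood test of edgeR 4.0.16 (R 4.3.3, robust) in 1 fit of all 12 libraries, with 8 residual degrees of freedom and Benjamini-Hochberg adjustment over 11934 genes. Levels are means ± SD over 3 libraries, and log2 fold changes have their SE and 95% intervals. The method was tested on simulated data. Alternatives were DESeq2 1.42.0, limma-voom (limma 3.58.1), other scalings and filters, the 18S gene removed, the libraries over 25% 18S left out, the compared groups alone, a replicate block, each library left out and, added after seeing the data, a gene span trend removed. Floors and intervals cover counting error and library spread, since reads carry no molecular identifiers. The members and lists were chosen with earlier results of these data known. Besides the members, up to 4 called genes per list and comparison with the smallest adjusted p, and G6pc, Pck2, Slc37a4, Igfbp1, Pdk4, Hnf4a and Aatf, are named. 1 gene of these lists is not reported here.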

Additional observations from a re-analysis of the deposited data

How the results depend on the processing

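Of the 7 member values called, 4 passed in every alternative: Irs1 in Western null against chow null, and Irs1, Pcx and Pck1 over both vectors. No called value changed sign. Of the 63 member values not called, 4 passed in at least 1 alternative, and 35 changed sign in at least 1 while staying short of the threshold; their direction is not firm. Of 59 called values of members and other named genes, 34 passed in every alternative. Without TMM, 13 of 40 group levels moved by over 1 SD.

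In Western null against chow null, 1577 genes and 3 members were called. Without the libraries over 25% 18S, which leaves 1 chow null library that is assumed to vary like the others, the counts were 1031 and 1. With 1 library left out they ranged from 658 to 1817 genes (658 without chow null replicate 3) and from 1 to 2 members. In Western siAATF against Western null, 104 genes were called, against 285 with DESeq2, 572 with no filter, 53 in the compared groups alone and 64 with the replicate block, and 26 to 413 with 1 library left out (413 without Western siAATF replicate 3). In chow siAATF against chow null, 0 were called, against 1 with DESeq2 and 33 with no filter. In Western siAATF against chow siAATF, 177 were called, against 513 with DESeq2, 836 with no filter, 103 without the libraries over 25% 18S, 17 in the compared groups alone and 71 with the replicate block, and 34 to 737 with 1 left out. The members called there were 1, against 2 (Irs1 and Pck1) with DESeq2 and with no filter, 0 without the libraries over 25% 18S and in the compared groups alone, and 0 to 2 with 1 left out. In the interaction, 23 were called, against 124 with DESeq2, 331 with no filter, 3 without the libraries over 25% 18S, 14 with the replicate block, and 2 to 295 with 1 left out. For the vector over both diets, 4 were called, against 35 with DESeq2, 2 with limma-voom, 195 with no filter, 1 without the libraries over 25% 18S, 7 with the gene span trend removed, and 2 to 83 with 1 left out. The cause was not tested, beyond the fewer samples or genes that some alternatives use.

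Upper quartile scaling gave 938 higher and 639 lower genes in Western null against chow null, against 769 and 808. It gave 121 and 73, against 91 and 86, in Western siAATF against chow siAATF, and 1428 and 752, against 1147 and 1025, over both vectors. It moved the median log2 fold change of all genes to 0.12 in Western siAATF against chow siAATF.

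Same-numbered libraries did not deviate together: over 18 pairs the correlation ran from -0.38 to 0.26, with 1 pair over 0.1, so the numbers were not taken to pair the samples. With the replicate block, 1157 genes and 2 members were called in Western null against chow null, and 1664 genes and 3 members over both vectors. Depth limits the low members most, Ppargc1a with 18 counts in 1 library, and Irs2 with 40.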

Other observations

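Levels can be set between genes only per length, and the length here is the counted span with its introns. Per kilobase of span, Pck1 averaged 279 CPM in Western siAATF, 272 in Western null, 579 in chow siAATF and 530 in chow null livers. The next members were Fbp1, at 19.0 to 24.0 CPM per kilobase over the 4 groups, and Gcgr, at 14.6 to 17.8. Pcx followed at 5.43 to 11.5, and Ppargc1a, whose span is 661747 bases, was last at 0.0161 to 0.0234. The other 5 members lay between 0.456 and 2.00 CPM per kilobase. A gene with long introns stands low on this scale.

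The members differed in how much of their variation lay between groups. The SD of log2 CPM over the 12 libraries was 0.697 for Irs1, against 0.176 within groups. For Irs2 it was 0.565, against 0.509 within groups. Pck1 had 0.619 and 0.389, and Pcx 0.581 and 0.363.

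Genes with the most similar pattern were sought for the 3 members called, by the root-mean-square difference of centred log2 CPM over the 12 libraries. All genes of a library have its depth and 18S share in common, and both differ between libraries. For Irs1 they were Mcc (0.211), Acnat1 (0.221) and Larp1 (0.223), where the median over all tested genes was 0.801. Mcc had 62.4 to 77.9 CPM in Western siAATF, 55.5 to 63.7 in Western null, 116 to 125 in chow siAATF and 113 to 152 in chow null libraries. For Pcx they were Lgals3bp (0.185), Prdx2 (0.185) and Bst2 (0.187), with a median of 0.737. For Pck1 they were Nfil3 (0.230), which encodes a repressor under clock control, Fgfr4 (0.267), the main liver receptor for intestinal FGF signals to bile acid synthesis, and Rassf8 (0.274), with a median of 0.744. Nfil3 had 27.6, 23.8 and 9.68 CPM in Western siAATF, 16.3, 18.1 and 13.2 in Western null, 57.9, 26.7 and 33.2 in chow siAATF, and 26.1, 59.3 and 34.7 in chow null libraries. These likenesses are descriptions, with no test.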
